A study of Mus musculus with 12 samples.

Results

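Matricellular proteins are secreted into the extracellular matrix but act there mainly as signals between matrix and cells, rather than as load-bearing fibres. The 10 genes described here were taken by symbol and encode periostin (Postn), cartilage intermediate layer protein (Cilp), the 5 thrombospondins (Thbs1, Thbs2, Thbs3, Thbs4 and Comp), tenascin C (Tnc), osteopontin (Spp1) and osteonectin (Sparc). They are 10 of 54146 gene records counted in each of 12 mouse heart libraries made from polyadenylated RNA. There were 4 libraries of NRON KO mice after transverse aortic constriction (TAC KO), 4 of NRON WT mice after the same surgery (TAC WT) and 4 of NRON WT mice after sham surgery (Sham WT). All hearts were collected 6 weeks after surgery. TAC narrows the aortic arch and makes the heart pump against a raised pressure, and NRON is a long noncoding RNA first described as a repressor of the transcription factor NFAT. The labels give neither the kind of deletion nor the strain, sex or age of the mice, and an NRON KO sham group was not analysed here. Nor do they state that each library is a different animal, and p-values therefore reflect only how far these libraries spread, which may be technical. Replicate numbers follow accession order and only name a library.

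In the healthy adult heart most matricellular proteins are scarce, and they return when the muscle is injured or overloaded. Activated fibroblasts secrete periostin, which binds collagen and integrins and helps collagen fibres to form. Thrombospondins bind calcium, integrins and, for some members, CD36 and CD47. Thrombospondin 1 can free TGF-beta from its latent complex, and thrombospondin 4 is known in mice to support the ATF6 arm of the endoplasmic reticulum stress response.

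Library totals were 28565856 to 35777820 counts in TAC KO, 26288519 to 35945770 in TAC WT and 27596898 to 35491024 in Sham WT. Levels are given as CPM, counts scaled to the library total, with edgeR's TMM factors applied, which were 0.977 to 1.04. Nron had 0 counts in all 12 libraries, so it does not check the knockout labels. All 10 cardiomyocyte markers were measured, with summed levels of 78584 to 84514 CPM in TAC KO, 77107 to 82446 in TAC WT and 84286 to 94836 in Sham WT. The TAC KO libraries differed from the others in composition: when tested genes were cut into 5 classes by GC content, the median deviation of the class richest in GC minus that of the poorest class was 0.10 to 0.43 log2 units in TAC KO, against -0.15 to -0.06 in TAC WT and -0.12 to -0.04 in Sham WT. The same difference between the classes of longest and shortest transcripts was -0.26 to -0.15 in TAC KO, -0.04 to 0.19 in TAC WT and -0.0021 to 0.15 in Sham WT. TAC WT 4 stood apart in skeletal muscle genes, with a sum of 19.2 CPM over 8 markers, of which the fast myosin heavy chain Myh4 gave 7.71 CPM. In the other 3 TAC WT libraries that sum was 1.72 to 2.45 CPM, in TAC KO 1.602 to 1.72 and in Sham WT 1.19 to 2.03. Calls of the 10 genes that changed without TAC WT 4 are given with and without it.

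RefSeq promoter windows of GRCm38.p6, from 250 bases before to 50 bases after the start of transcription, were found for 8 of the 10 genes. Windows for Thbs1 and Comp were not found. Postn, Cilp and Thbs4, the genes with the highest fitted changes in TAC WT over Sham WT, are shown with Thbs2, which moved the other way in wild-type hearts. Capitals in Postn and Cilp mark TATATAA, an A and T rich box of the TATA kind that begins at -28 in Postn and -30 in Cilp. This motif was picked after the sequences were read. In Postn it overlaps a match to TATAAA, which is also found in Thbs2 and Tnc at -126 and in Spp1 at -211. Capitals in Thbs4 mark CATTCCATTCC, which holds 2 matches to GGAATG on the opposite strand, the core letters bound by TEAD factors. Capitals in Thbs2 mark GGAAAA, the core letters bound by NFAT.
Postn, chr3:54360857-54361156, plus strand: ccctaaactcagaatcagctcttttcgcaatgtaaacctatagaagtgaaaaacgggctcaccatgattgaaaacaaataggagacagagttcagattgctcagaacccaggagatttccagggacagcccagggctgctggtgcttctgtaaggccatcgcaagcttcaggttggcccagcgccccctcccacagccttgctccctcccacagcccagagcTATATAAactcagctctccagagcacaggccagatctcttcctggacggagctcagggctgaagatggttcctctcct
Cilp, chr9:65264930-65265229, plus strand: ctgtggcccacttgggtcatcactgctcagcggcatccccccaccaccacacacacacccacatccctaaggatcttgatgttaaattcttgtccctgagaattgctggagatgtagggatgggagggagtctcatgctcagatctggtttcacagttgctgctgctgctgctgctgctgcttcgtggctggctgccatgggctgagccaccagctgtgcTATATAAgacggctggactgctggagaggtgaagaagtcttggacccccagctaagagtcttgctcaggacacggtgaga
Thbs4, chr13:92794769-92795068, minus strand: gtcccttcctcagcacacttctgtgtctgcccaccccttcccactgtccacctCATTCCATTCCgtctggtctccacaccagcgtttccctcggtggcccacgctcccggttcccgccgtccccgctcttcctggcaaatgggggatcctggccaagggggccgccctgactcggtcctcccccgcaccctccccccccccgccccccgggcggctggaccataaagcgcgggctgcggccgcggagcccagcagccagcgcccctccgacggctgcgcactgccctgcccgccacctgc
Thbs2, chr17:14694213-14694512, minus strand: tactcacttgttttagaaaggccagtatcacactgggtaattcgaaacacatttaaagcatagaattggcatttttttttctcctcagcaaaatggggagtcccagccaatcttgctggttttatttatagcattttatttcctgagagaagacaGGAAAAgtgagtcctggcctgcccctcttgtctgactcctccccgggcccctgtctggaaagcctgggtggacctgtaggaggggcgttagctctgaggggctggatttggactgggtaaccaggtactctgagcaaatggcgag
Both strands were searched in all windows. TATATAA occurred in 3.24% of 32841 RefSeq mouse windows, TATAAA in 13.6%, GGAATG in 14.7% and GGAAAA in 23.4%. GGAAAA was also found in Thbs3, with 2 matches, and in no other window of the 8. The AP-1 letters TGANTCA, found in 7.81% of all windows, were in none of the 8. The SMAD letters GTCTG, found in 49.6% of all windows, were in Thbs2, Thbs4, Tnc and Spp1 and in the downstream window of Sparc. A match is a run of letters and not a measured binding site.

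TAC WT hearts were compared with Sham WT hearts to ask what pressure overload does in wild-type animals. Of the 10 genes, 8 rose, Thbs2 fell and Spp1 did not pass (adjusted p under 0.05, edgeR's quasi-likelihood test with Benjamini-Hochberg adjustment over 15477 tested genes). Of all tested genes 19.7% were called, 9.67% higher and 10% lower. The median log2 fold change of the 10 genes was 1.49, against 0.00 over all tested genes. The TAC WT and Sham WT libraries did not overlap for 9 of the 10 genes, a separation seen in 24.7% of tested genes. Together the 10 genes made up 0.0857 to 0.147% of the counts of a TAC WT library and 0.0565 to 0.0642% of a Sham WT library. Most of that sum was Sparc, with a mean of 761 of 1166 CPM in TAC WT and 507 of 612 CPM in Sham WT. These are bulk tissue values, in which more cells of a type and more RNA per cell cannot be told apart.

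TAC KO hearts were compared with TAC WT hearts to ask how hearts labelled knockout differ from wild-type hearts after the same surgery. Thbs2 rose, Thbs1 fell and the other 8 genes did not pass, while 33% of all tested genes were called in this comparison, 15.7% higher and 17.3% lower. The count of called members, 2 of 10, was thus below the share over all genes. It was 1, for Thbs2 alone, when TAC KO 1, 2 or 4, TAC WT 1 or 4 or any Sham WT library was left out, and 4 without TAC WT 2, when Thbs1, Postn and Sparc fell. The median log2 fold change of the 10 genes was -0.08, and only Thbs2 showed no overlap between the groups, against 28.4% of tested genes (13.3% with all TAC KO libraries higher). Against Sham WT, 8 of the 10 genes rose in TAC KO and Thbs1 and Thbs2 did not pass, with 27.6% of all tested genes called and 12.8% called higher, and a median log2 fold change of 1.40. The groups did not overlap for 4 of the 10 genes, against 30.7% of all tested genes. That count of 8 was 5 without TAC KO 3, Sham WT 3 or Sham WT 4 and 4 without Sham WT 2. The 3 comparisons share libraries pairwise, so their values are given side by side and are not independent.

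**Figure D1:**
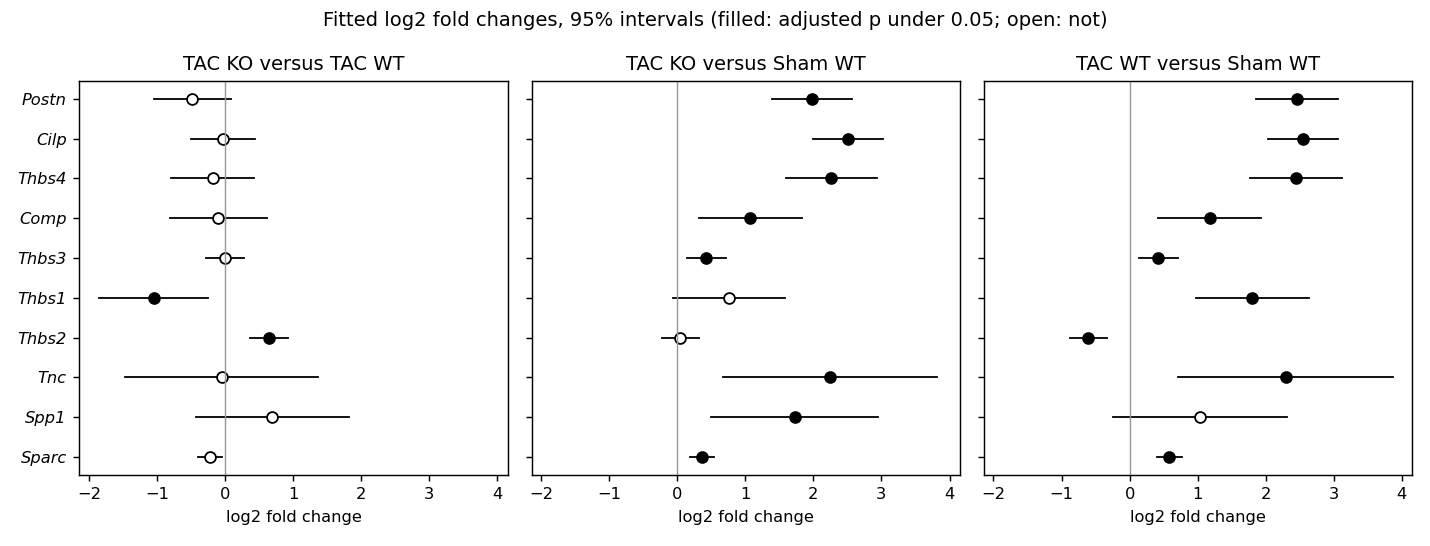
Fitted log2 fold changes (x axis) of the 10 genes (rows) in the 3 comparisons, with 95% intervals; filled points passed an adjusted p of 0.05. In TAC KO versus TAC WT, Thbs1 and Thbs2 are filled, while 8 points are filled in TAC KO versus Sham WT and 9 in TAC WT versus Sham WT.

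Periostin (ENSMUSG00000027750.16, chr3:54361109-54391037, plus strand of GRCm38) had the highest level per exon length after Sparc in all 3 groups. Its levels were 88.0, 191, 162 and 109 CPM in TAC KO 1 to 4, against 237, 108, 145 and 278 CPM in TAC WT 1 to 4 and 39.4, 31.8, 33.6 and 34.7 CPM in Sham WT 1 to 4. Every library of both TAC groups lay above every Sham WT library, and the TAC groups overlapped. Postn rose 3.94-fold in TAC KO over Sham WT (log2 fold change 1.98, SE 0.28, edgeR adjusted p = 0.0002446) and 5.51-fold in TAC WT over Sham WT (log2 fold change 2.46, SE 0.28, adjusted p = 5.128e-05). Between TAC KO and TAC WT the log2 fold change was -0.48, with a 95% interval from -1.05 to 0.09 (adjusted p = 0.1806). That call depended on TAC WT 2, the lowest TAC WT library, without which the log2 fold change was -0.68 (adjusted p = 0.04317). Postn mRNA is poor in GC (36.3%, lower than all but 1.07% of tested genes), and composition by GC and by length differed between TAC KO and the other groups. With trends by GC and length taken out, the log2 fold change of Postn in TAC KO over TAC WT was -0.19 (adjusted p = 0.613).

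Cilp (ENSMUSG00000042254.14, chr9:65265180-65280605, plus strand) encodes a matrix protein first found in cartilage that can bind TGF-beta and is made by cardiac fibroblasts. It stood at 49.7, 80.2, 60.4 and 35.5 CPM in TAC KO, against 60.8, 43.4, 52.4 and 74.5 CPM in TAC WT and 13.6, 8.36, 8.68 and 8.91 CPM in Sham WT. Both TAC groups lay wholly above Sham WT and ran over the same range as each other. Cilp had the smallest p of the 10 genes in both comparisons with Sham WT, with a log2 fold change of 2.51 for TAC KO (SE 0.24, edgeR adjusted p = 1.998e-05) and 2.55 for TAC WT (SE 0.24, adjusted p = 1.281e-05). The difference between TAC KO and TAC WT was -0.03 on the log2 scale, with a 95% interval from -0.50 to 0.43.

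Thbs4 (ENSMUSG00000021702.7, chr13:92751590-92794818, minus strand) was the thrombospondin with the highest fold change after TAC. Its levels were 19.5, 28.8, 32.5 and 16.4 CPM in TAC KO, against 24.6, 17.6, 20.2 and 48.5 CPM in TAC WT and 6.75, 4.12, 4.94 and 4.40 CPM in Sham WT. All TAC libraries were above all Sham WT libraries, and TAC WT 4 was the highest of the 12. Thbs4 rose by 2.26 on the log2 scale in TAC KO over Sham WT (SE 0.32, edgeR adjusted p = 0.0002316) and by 2.45 in TAC WT over Sham WT (SE 0.32, adjusted p = 0.0001193). The log2 fold change of TAC KO over TAC WT was -0.18, with a 95% interval from -0.79 to 0.42. Thbs4 is also made by skeletal muscle and tendon, and TAC WT 4 was the library with skeletal muscle transcripts. Without TAC WT 4 the rise in TAC WT over Sham WT was 2.04 (adjusted p = 0.0001039), and the log2 fold change of TAC KO over TAC WT was 0.23 (adjusted p = 0.4674).

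**Figure D2:**
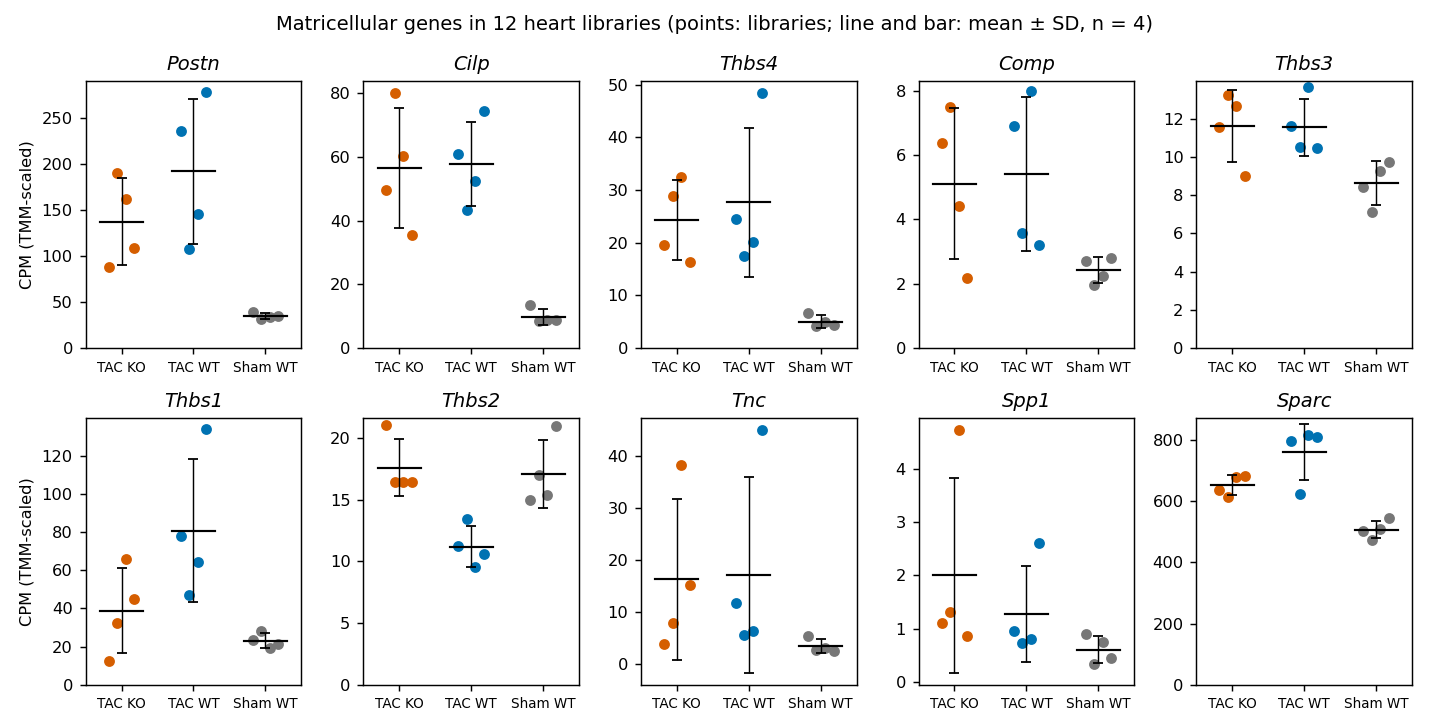
Level of each gene (y axis, TMM-scaled CPM, each panel with its own scale) in the 4 libraries of TAC KO, TAC WT and Sham WT; points are libraries, and lines with bars are the mean and SD. Postn, Cilp and Thbs4 stand above Sham WT in all 8 TAC libraries, Thbs2 is lowest in TAC WT, and Tnc and Spp1 each have 1 high library in TAC KO and in TAC WT.

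Thbs1 and Thbs2, the subgroup of thrombospondins known to restrain the growth of blood vessels, were the only members that passed between TAC KO and TAC WT, in opposite directions. Thbs1 (ENSMUSG00000040152.8, chr2:118111876-118127133, plus strand) stood at 12.6, 32.3, 65.7 and 45.1 CPM in TAC KO, against 77.8, 47.1, 64.5 and 134 CPM in TAC WT and 23.7, 28.1, 19.3 and 21.3 CPM in Sham WT. TAC KO 1 was below all 4 Sham WT libraries, and TAC KO 3 reached into the TAC WT range. Thbs1 fell by 1.05 on the log2 scale in TAC KO relative to TAC WT (SE 0.38, edgeR adjusted p = 0.04506, 95% interval from -1.85 to -0.24). This call was lost in 12 of 22 alternatives, among them DESeq2 (adjusted p = 0.06743), removal of GC and length trends (0.0907), and leaving out any 1 of TAC KO 1, 2 or 4, TAC WT 1 or 4, or any Sham WT library. Without TAC WT 4 the log2 fold change was -0.69 (adjusted p = 0.1654), and without TAC KO 1 it was -0.76 (adjusted p = 0.08353).

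The rise of Thbs1 in TAC WT over Sham WT was 1.80 on the log2 scale (SE 0.39, edgeR adjusted p = 0.004688) and was called in all 22 alternatives, with 1.45 (adjusted p = 0.01633) without TAC WT 4. For TAC KO over Sham WT the log2 fold change was 0.76, with a 95% interval from -0.06 to 1.58 (adjusted p = 0.1562). That comparison passed without TAC KO 1, at 1.05 (adjusted p = 0.02493), and with no filter on low counts (adjusted p = 0.03257). TAC KO 1 was also the library with the highest GC trend, 0.43 against 0.10 to 0.12 in the other TAC KO libraries. Thbs1 mRNA itself is near the middle in GC (49.9%, higher than in 51.4% of tested genes). With GC and length trends removed, the log2 fold change of Thbs1 in TAC KO over Sham WT was 0.86 (edgeR adjusted p = 0.1437). The part of the GC trend in the Thbs1 level of TAC KO 1 itself was not tested. Group means for Thbs1 were 38.9 ± 22.3 CPM in TAC KO, 80.8 ± 37.6 CPM in TAC WT and 23.1 ± 3.80 CPM in Sham WT (SD, n = 4 each). TAC KO thus stood between the others in the mean, and its difference from Sham WT did not pass.

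Thbs2 (ENSMUSG00000023885.9, chr17:14665500-14694235, minus strand) ran the other way. It had 21.1, 16.4, 16.4 and 16.5 CPM in TAC KO, against 11.3, 13.4, 9.53 and 10.6 CPM in TAC WT and 14.9, 17.0, 15.4 and 21.0 CPM in Sham WT. All TAC WT libraries were below all libraries of both other groups, and the ranges of TAC KO and Sham WT overlapped, with Sham WT 1 and 3 below all TAC KO libraries. The TAC KO level of Thbs2 was 1.57-fold that of TAC WT, a log2 fold change of 0.65 with an SE of 0.13 (adjusted p = 0.001954, edgeR), and its call held in all 22 alternatives, from 0.55 to 0.78. In TAC WT it fell by 0.61 on the log2 scale relative to Sham WT (SE 0.13, adjusted p = 0.004425), again in all 22 alternatives. Between TAC KO and Sham WT the log2 fold change was 0.04, with a 95% interval from -0.23 to 0.31. These contrasts share the TAC WT libraries, so the higher level in TAC KO and the lower level in TAC WT rest in part on the same 4 values.

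Thbs3 and Comp belong with Thbs4 to the other subgroup, whose members assemble as pentamers. Thbs3 (ENSMUSG00000028047.11, chr3:89215180-89226837, plus strand) had 11.5, 13.2, 12.7 and 9.01 CPM in TAC KO, against 11.6, 10.5, 13.6 and 10.5 CPM in TAC WT and 8.44, 7.13, 9.25 and 9.75 CPM in Sham WT. TAC WT lay above Sham WT throughout, while TAC KO 4 was within the Sham WT range. The rise over Sham WT was 0.43 in TAC KO (SE 0.13, edgeR adjusted p = 0.02744) and 0.42 in TAC WT (SE 0.13, adjusted p = 0.03663), and the interval between TAC KO and TAC WT ran from -0.27 to 0.28. The call in TAC KO over Sham WT was lost without TAC KO 2, TAC KO 3, Sham WT 1 or Sham WT 2 (adjusted p up to 0.0787), and that in TAC WT over Sham WT without TAC WT 1, TAC WT 3 or Sham WT 1, 2 or 3 (up to 0.1049). Thbs3 shares 318 exon bases with Mtx1 on the opposite strand. The library kit keeps strand, but the strand setting of the counting is not given in the sources used here, and Mtx1 was at 20.8 to 26.6 CPM in the 12 libraries.

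Comp (ENSMUSG00000031849.9, chr8:70373558-70382066, plus strand), cartilage oligomeric matrix protein, binds collagen and fibronectin. It had 6.39, 7.49, 4.42 and 2.17 CPM in TAC KO, against 6.91, 3.57, 7.997 and 3.19 CPM in TAC WT and 2.70, 1.95, 2.26 and 2.79 CPM in Sham WT. TAC KO 4 lay within the Sham WT range, and each TAC group held libraries near 7 CPM as well as libraries under 5 CPM. Comp rose by 1.07 on the log2 scale in TAC KO over Sham WT (SE 0.35, edgeR adjusted p = 0.0357) and by 1.18 in TAC WT over Sham WT (SE 0.35, adjusted p = 0.02949). The call in TAC KO was lost without TAC KO 1, TAC KO 2 or any Sham WT library (adjusted p up to 0.105), with voom (0.1437) and after removal of GC and length trends (0.08841). Comp mRNA is rich in GC (59.9%, higher than in 95.8% of tested genes), and its log2 fold change was 0.91 after that removal. The call in TAC WT was lost without TAC WT 1, TAC WT 3 or Sham WT 1, 2 or 3 (up to 0.09081). TAC KO and TAC WT differed by -0.10, with a 95% interval from -0.81 to 0.61.

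Per kilobase of exon the 5 thrombospondins summed to 15.6 to 27.2 CPM per kb in TAC KO, 18.4 to 41.6 in TAC WT and 9.56 to 10.8 in Sham WT, with no overlap of either TAC group with Sham WT. Without TAC WT 4 the TAC WT range was 18.4 to 26.6. Thbs4 made up 35.9 ± 5.07% of that sum in TAC KO, 29.6 ± 4.09% in TAC WT and 14.8 ± 3.31% in Sham WT (SD, n = 4 each). Thbs1 made up 30.1 ± 13.7% in TAC KO, 47.1 ± 4.69% in TAC WT and 36.6 ± 5.41% in Sham WT. Thbs2 gave 13.1 ± 4.62% in TAC KO, 6.47 ± 2.86% in TAC WT and 23.5 ± 3.23% in Sham WT. In Sham WT, Thbs1 was thus the leading thrombospondin in every library, and in TAC KO the leading member differed between libraries, with Thbs4 ahead in TAC KO 1 and 2 and Thbs1 in TAC KO 3 and 4.

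**Figure D3:**
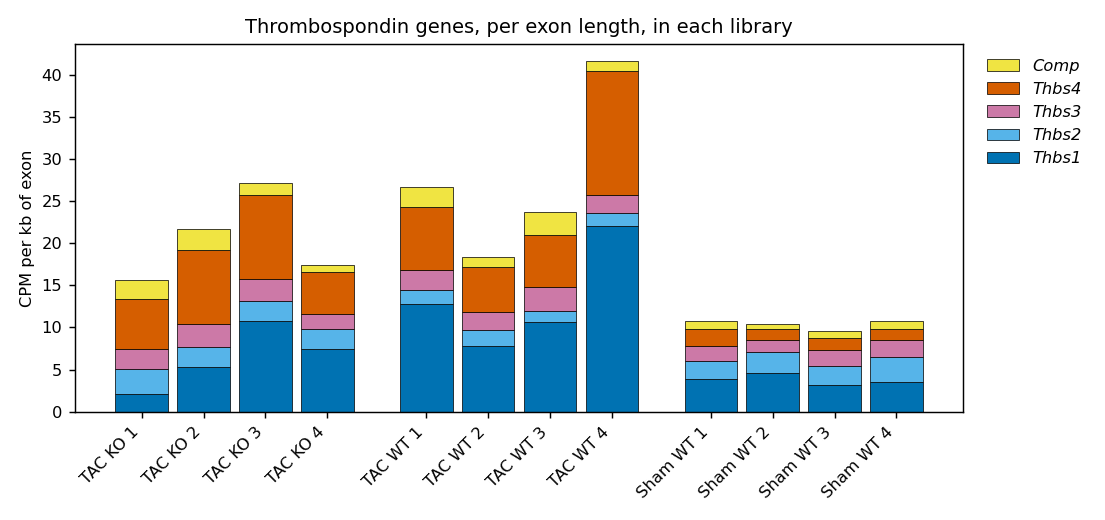
CPM per kb of exon (y axis) of the 5 thrombospondin genes, stacked, in each of the 12 libraries. The sum is 9.56 to 10.8 in Sham WT and higher in all TAC libraries, and the Thbs4 share is larger in both TAC groups than in Sham WT.

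Tnc and Spp1 were the members that varied most between libraries of a group. Tenascin C (ENSMUSG00000028364.15, chr4:63959785-64047015, minus strand) loosens the hold of cells on fibronectin and appears at sites of tissue remodelling. It had 3.81, 7.84, 38.3 and 15.2 CPM in TAC KO, against 11.8, 5.54, 6.29 and 44.97 CPM in TAC WT and 5.41, 2.72, 3.14 and 2.49 CPM in Sham WT. TAC KO 3 and TAC WT 4 were far above the rest of their groups, and TAC KO 1 was within the Sham WT range. The biological coefficient of variation of Tnc was 0.636, higher than in 99.7% of tested genes, where the common value was 0.113. The log2 fold change over Sham WT was 2.24 in TAC KO (SE 0.73, edgeR adjusted p = 0.03485) and 2.29 in TAC WT (SE 0.74, adjusted p = 0.0408).

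The Tnc calls rested on few libraries. The rise in TAC WT over Sham WT was 1.19 without TAC WT 4 (adjusted p = 0.2096), and it was also lost without TAC WT 1, TAC KO 4 or any Sham WT library. The rise in TAC KO over Sham WT was 1.38 without TAC KO 3 (adjusted p = 0.1492) and was also lost without TAC KO 4 or Sham WT 2, 3 or 4. Between TAC KO and TAC WT the 95% interval ran from -1.46 to 1.36 on the log2 scale, so differences of up to 1.36 either way lie within it. With 1 surrogate variable in the fit this log2 fold change was 0.88 (adjusted p = 0.0003065). In that fit the rise of Tnc over Sham WT was 0.71 in TAC WT (edgeR adjusted p = 0.004083) and 1.59 in TAC KO (adjusted p = 6.412e-06).

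Osteopontin (Spp1, ENSMUSG00000029304.14, chr5:104435118-104441050, plus strand), an integrin ligand that macrophages secrete in injured tissue, had the lowest mean CPM per kb in all 3 groups when its whole exon length was used. It shares 309 of its 1648 exon bases with Gm42793 on the same strand, where reads may have been left uncounted, and in Sham WT its mean was 0.367 CPM per kb beside 0.443 for Tnc, so its rank below Tnc there is uncertain. It had 32, 41, 166 and 30 counts in TAC KO (1.10, 1.32, 4.73 and 0.858 CPM), against 35, 24, 27 and 71 counts in TAC WT (0.956, 0.738, 0.797 and 2.61 CPM) and 30, 12, 26 and 12 counts in Sham WT (0.892, 0.343, 0.742 and 0.440 CPM). TAC KO 3 and TAC WT 4, the libraries with the highest Tnc, again led their groups, and each TAC group overlapped Sham WT. Spp1 rose by 1.72 on the log2 scale in TAC KO over Sham WT (SE 0.57, edgeR adjusted p = 0.03685), but without TAC KO 3 the value was 0.84 (adjusted p = 0.1932). The call was also lost without Sham WT 2, 3 or 4 (adjusted p up to 0.09666) and after removal of GC and length trends (0.05228). In TAC WT over Sham WT the log2 fold change was 1.03 (adjusted p = 0.2509), or 0.45 without TAC WT 4 (adjusted p = 0.6621), and TAC KO over TAC WT gave 0.70 (adjusted p = 0.3349), which passed with 1 surrogate variable (adjusted p = 0.01294).

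Sparc (ENSMUSG00000018593.13, chr11:55394500-55423183, minus strand), a collagen-binding glycoprotein of basement membranes and fibrous matrix, was the most abundant member per kb and the least variable. It had 635, 614, 678 and 681 CPM in TAC KO, against 795, 623, 817 and 809 CPM in TAC WT and 502, 473, 509 and 543 CPM in Sham WT. Both TAC groups lay above Sham WT, and all TAC KO libraries were below TAC WT 1, 3 and 4, with TAC WT 2 inside the TAC KO range. Per kb this was 172 ± 8.64 in TAC KO, 201 ± 24.4 in TAC WT and 134 ± 7.65 in Sham WT (SD, n = 4 each), and 98.4 to 98.9% of tested genes had lower mean values. Sparc rose by 0.36 on the log2 scale in TAC KO over Sham WT (SE 0.08, edgeR adjusted p = 0.006045) and by 0.59 in TAC WT over Sham WT (SE 0.08, adjusted p = 0.0002705).

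Sparc was the member nearest to the threshold between TAC KO and TAC WT, at -0.22 (SE 0.08, edgeR adjusted p = 0.05333). It passed without TAC WT 2, at -0.31 (adjusted p = 0.003386), with DESeq2 (0.03732), with voom and quality weights (0.04215), with a filter of 1 CPM in 4 libraries (0.04529) and after removal of GC and length trends, at -0.33 (0.0101). All of these gave a lower level in TAC KO. In the other 17 of 22 alternatives the difference did not pass (edgeR adjusted p up to 0.1274). Among those were the fit with 1 surrogate variable (0.1182) and a fit of TAC KO and TAC WT alone (0.105).

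**Figure D4:**
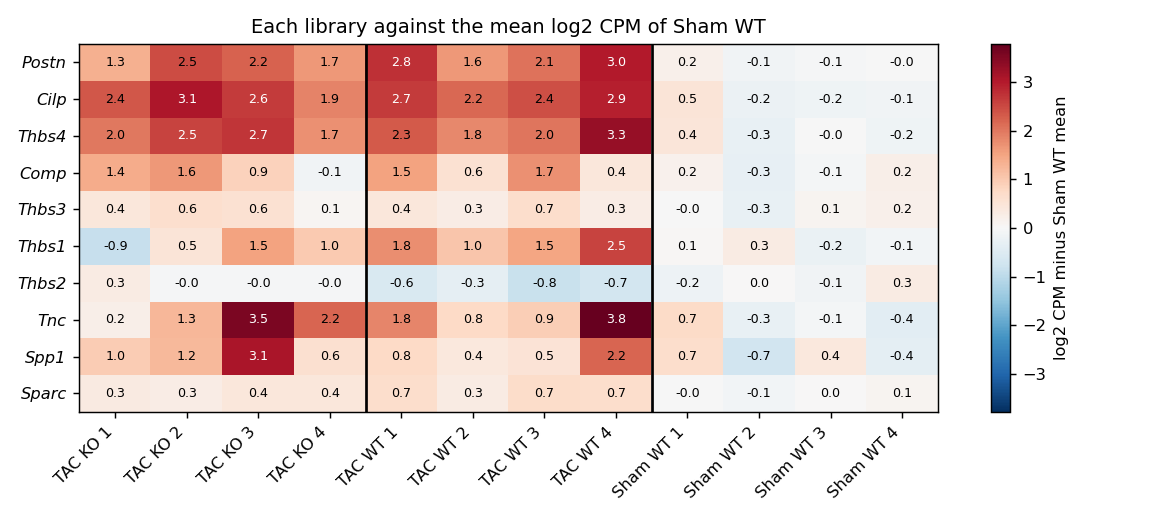
Level of the 10 genes (rows) in each library (columns), as the log2 CPM minus the mean log2 CPM of Sham WT; red is higher and blue lower than that mean. TAC KO 3 and TAC WT 4 are high in Tnc (3.5 and 3.8) and Spp1 (3.1 and 2.2), and Thbs2 is below the Sham WT mean in all TAC WT libraries.

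Correlations between members differed widely from pair to pair. Over all 12 libraries, the gene most like Thbs4 among members was Cilp (Pearson r = 0.98), followed by Postn with 0.97, and r between Postn and Cilp was 0.96. With each group's mean subtracted, r was 0.85 between Thbs4 and Cilp, 0.84 between Thbs4 and Postn, 0.89 between Thbs1 and Tnc, 0.82 between Tnc and Spp1, 0.81 between Thbs3 and Comp and 0.87 between Thbs4 and Spp1, the highest 6 of 45 pairs. Without TAC WT 4 those pairs had r of 0.90, 0.79, 0.88, 0.73, 0.81 and 0.82. At the other end, Thbs2 was negative with all 9 other members, from -0.54 with Thbs1 to -0.016 with Comp, and r was -0.44 between Comp and Tnc and -0.42 between Comp and Thbs1. These are descriptions over 12 libraries, or 11 without TAC WT 4, whose points share depth, GC composition and any uneven sampling of the tissue.

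Among 12836 genes with a mean of at least 1 CPM, those most like each member over the 12 libraries were named by the same measure. Frzb, a secreted Wnt antagonist (r = 0.98), and Ltbp2, a latent TGF-beta binding protein, were among the 3 genes most like Postn. Thbs4 was most like Memo1, Cilp and Ltbp2 (r = 0.98 each), and Cilp was most like Thbs4, Ltbp2 and the proteoglycan biglycan, Bgn (0.98, 0.98 and 0.97). Tnc was most like Lhfp, Timp1, an inhibitor of matrix metalloproteases, and Kdelr3 (0.97 each). Timp1 stood at 5.73, 6.33, 47.7 and 19.1 CPM in TAC KO, against 11.9, 9.78, 6.37 and 56.02 CPM in TAC WT and 3.51, 2.06, 2.80 and 2.38 CPM in Sham WT, with the same high libraries as Tnc. Comp was most like Col14a1 (0.94), Dkk3 and Col4a4, and Cacnb3 and Comp were among the 3 most like Thbs3. For Thbs1 the nearest genes were 2610001J05Rik, Uba2 and Cct8 (0.96 each), and for Thbs2 Pcif1 (0.96), Ripor2 and Slc25a15. Sparc was most like Cdc42se1, Anxa4 and Slc7a5 (0.96, 0.96 and 0.95) and Spp1 like Lsm7 (0.93), D11Wsu47e and Lins1. These r values take in the differences between group means. With each group's mean subtracted, r in these pairs ran from 0.70 for Sparc with Slc7a5 to 0.98 for Tnc with Lhfp.

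Other genes of the same biology were counted from lists. Of all tested genes, 9.67% were higher and 10% lower in TAC WT over Sham WT. The shares were 15.7% higher and 17.3% lower in TAC KO over TAC WT, and 12.8% and 14.8% in TAC KO over Sham WT. Of 24 further matricellular genes 15 were tested. None of the 15 fell and 6 rose in TAC WT over Sham WT, among them the connective tissue growth factor gene Ccn2 (log2 2.69), Ccn1 (0.87), the follistatin-like gene Fstl1 (0.88) and fibulin 2, Fbln2 (0.73). In TAC KO over TAC WT, Ccn2 (-1.65, edgeR adjusted p = 0.0002932) and Ccn1 (-0.56, adjusted p = 0.03528) fell and Fbln1 (0.48) and Smoc2 (0.29) rose. These 2 of 15 in each direction are below the shares of all tested genes in that comparison. Ccn2 stood at 94.9, 279, 196 and 200 CPM in TAC KO, against 679, 432, 588 and 715 CPM in TAC WT and 95.8, 106, 90.9 and 79.9 CPM in Sham WT. The groups of TAC KO and TAC WT thus did not overlap for Ccn2, unlike for Thbs1. The median of the 15 genes was 0.18 in TAC KO over TAC WT, where the median of all tested genes was 0.00. Without TAC KO 1 none of these genes rose, and without TAC KO 4, 5 rose. Only 1 rose without TAC KO 2, TAC WT 2 or 3 or Sham WT 1 or 2, and only 1 fell without TAC KO 1 or 4 or TAC WT 1 or 3. Ibsp, the gene of integrin-binding sialoprotein, had 0 counts in all libraries.

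The TGF-beta ligands and their partners, 16 genes, had 7 higher and 3 lower in TAC WT over Sham WT, with a median log2 fold change of 0.24. Tgfb2 rose by 2.17, Tgfb3 by 0.60 and Ltbp2 by 3.10, while Ltbp1 fell by 0.56. In TAC KO over TAC WT none rose and 4 fell, which were Tgfb2 (-1.85, edgeR adjusted p = 1.289e-05), Tgfb3 (-0.83), Skil (-0.81) and Smad7 (-0.69). Skil and Smad7 are feedback inhibitors that TGF-beta signalling induces. The 4 of 16 stand beside the 17.3% of all tested genes that were lower. With unadjusted p under 0.05, 9 of the 16 passed in this comparison, and 3 rose and 4 fell once GC and length trends were removed. Without TAC KO 3 or TAC WT 2, 1 rose.

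Of 17 structural partners of the matricellular proteins, the collagens, fibronectin, elastin, fibrillin, cross-linking enzymes and small proteoglycans, 11 rose and none fell in TAC WT over Sham WT, with a median of 0.65. Bgn rose by 1.17, Col12a1 by 1.78, Col5a2 by 0.88 and Col1a2 by 0.76. Against Sham WT 12 rose in TAC KO and none fell, with Col3a1 at 1.12 and Bgn at 0.99. Between TAC KO and TAC WT none of the 17 was called by edgeR, DESeq2 or voom, and none had an unadjusted p under 0.05. The median there was 0.01, and 1 rose without TAC WT 4 and 1 after removal of GC and length trends. The count in TAC WT over Sham WT was 7 without TAC WT 1, TAC WT 4, Sham WT 2 or Sham WT 3, and the count in TAC KO over Sham WT was 7 without Sham WT 2.

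Of 22 receptors, 8 rose in TAC WT over Sham WT and none fell. They included the integrin chains Itga9 (0.83), a receptor for tenascin C and osteopontin, Itga5 (0.73), Itgav (0.37) and Itgb5 (0.25). In TAC KO over TAC WT 2 rose and 7 fell, with a median of -0.25, among them Itgb1 (-0.48, edgeR adjusted p = 0.0002102), Sdc4 (-0.71), Ddr2 (-0.48) and Cacna2d1 (-0.45), the calcium channel subunit that binds thrombospondins. Over all tested genes 15.7% were higher and 17.3% lower. After removal of GC and length trends, 3 of the 22 rose and 4 fell, where 2034 of all 15477 tested genes rose and 1989 fell. Without that removal, the 2 that rose were 1 when TAC KO 1, 2 or 3 or any TAC WT library was left out. The rise in TAC WT over Sham WT covered 4 receptors without TAC WT 1, TAC WT 4 or Sham WT 2 and 5 without Sham WT 1 or 3.

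Thbs4 has been tied to ATF6 in mouse heart, and 14 genes of ATF6 and the endoplasmic reticulum chaperones were counted beside it. Creld2 (0.38, edgeR adjusted p = 0.04099) was the single gene that rose in TAC WT over Sham WT, where 5 of the 14 had an unadjusted p under 0.05, and its call was lost without TAC WT 3, TAC WT 4 or Sham WT 1, 2 or 3. In TAC KO over TAC WT, Dnajc3 (-0.39), Hsp90b1 (-0.32) and Hyou1 (-0.26) fell and Herpud1 (0.78) rose, and 7 fell without TAC WT 2. The 4 called of 14 are near the 33% called over all tested genes. In TAC KO over Sham WT none was called by edgeR, 5 had an unadjusted p under 0.05, and 2 fell with DESeq2 and 1 with voom. Over the alternatives the count that rose ran from 0 to 2, with 1 after removal of GC and length trends.

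**Figure D5:**
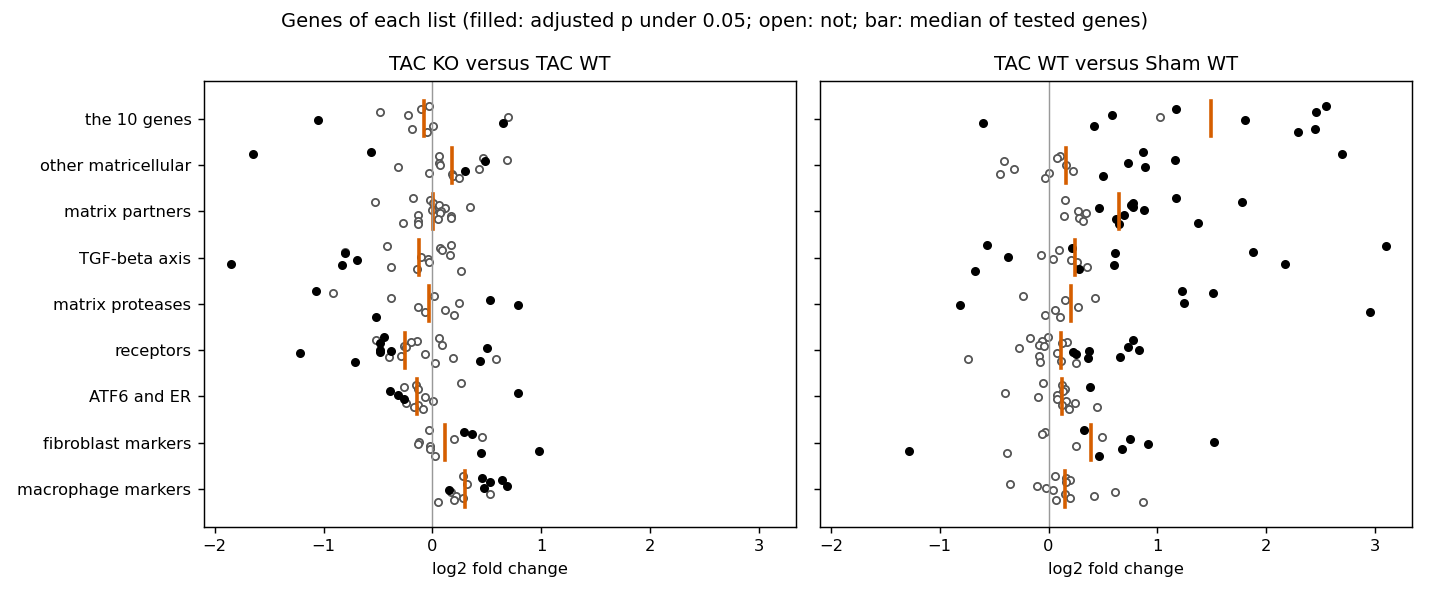
Log2 fold changes (x axis) of the genes of 9 lists (rows) in TAC KO versus TAC WT and TAC WT versus Sham WT; points are genes, filled where adjusted p was under 0.05, and the bar is the median of tested genes. The median of the 10 genes was -0.08 in TAC KO versus TAC WT and 1.49 in TAC WT versus Sham WT.

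Markers of cell types were counted in the same way. Of all tested genes, 15.7% were higher and 17.3% lower in TAC KO over TAC WT. In TAC KO over Sham WT 12.8% were higher, and in TAC WT over Sham WT 9.67% were higher and 10% lower. Of 12 fibroblast markers, 4 rose in TAC KO over TAC WT, 9 rose in TAC KO over Sham WT, and 6 rose and 1 fell in TAC WT over Sham WT. Their summed level was 2020 to 2350 CPM in TAC KO, 1698.8 to 2069 CPM in TAC WT and 1515 to 1728 CPM in Sham WT. Once GC and length trends were removed, 2 rose in TAC KO over TAC WT. Of 10 markers of activated fibroblasts, 9 were tested. None rose and 2 fell in TAC KO over TAC WT, the transcription factor gene Meox1 (-0.88, edgeR adjusted p = 0.001678) and Ddah1 (-0.46), with a median of -0.17, and 1 fell without TAC KO 1, TAC WT 1 or TAC WT 4. Against Sham WT, 3 of the 9 rose in TAC KO and 4 in TAC WT, with Ltbp2 and Mfap4 in both. The summed level of these markers was 294 to 422 CPM in TAC KO, 372 to 471 CPM in TAC WT and 283 to 336 CPM in Sham WT. Of 9 endothelial markers, the receptor genes Kdr (-0.62) and Tek (-0.36) fell in TAC KO over TAC WT, and 4 fell after removal of GC and length trends. These 2 of 9, like the 2 of 9 among activated fibroblast markers, are near the 17.3% of all tested genes that were lower. The summed level of endothelial markers was 1162 to 1277 CPM in TAC KO, 1313 to 1615 CPM in TAC WT and 1258 to 1476 CPM in Sham WT. Of 14 macrophage markers, 6 rose in TAC KO over TAC WT, where 15.7% of all tested genes were higher, and 11 in TAC KO over Sham WT, where 12.8% were higher. Their summed level was 803 to 939 CPM in TAC KO, 670 to 780 CPM in TAC WT and 688 to 714 CPM in Sham WT. C1qb rose by 0.64 and Cd68 by 0.69 in TAC KO over TAC WT. In TAC WT over Sham WT none of the 14 was called by edgeR, 4 had an unadjusted p under 0.05, 1 fell with DESeq2, and 2 rose and 1 fell with voom. Without TAC WT 2, 4 rose. The 11 macrophage markers were 7 without TAC KO 3, 6 without Sham WT 1, 7 without Sham WT 2 and 5 without Sham WT 3.

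Of 10 tendon and cartilage markers, 4 were tested. Their summed level was 13.1 to 17.4 CPM in TAC KO, 18.9 to 29.0 CPM in TAC WT and 9.71 to 11.4 CPM in Sham WT. Sox9 (1.53), Scx (1.02) and Fmod (2.43) rose in TAC WT over Sham WT, and Sox9 (-1.12) and Scx (-0.42) fell in TAC KO over TAC WT. Only 1 of them fell without TAC KO 1, 2 or 3, TAC WT 1 or 4 or Sham WT 1, 2 or 4. The part of any of these cell types, and of the skeletal muscle transcripts of TAC WT 4, in the levels of the 10 genes was not tested.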

How the data were processed

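Raw counts per gene were deposited by the authors, 1 file per library with 54146 records. The submitters' processing notes name Trim Galore 0.5.0, STAR, featureCounts 1.6.4 and the build GRCm38, and the strand setting is not given in the sources used here. Symbols came from the GRCm38 annotation. The counts were tested in R 4.3.3 with edgeR 4.0.16 (TMM scaling, filterByExpr, quasi-likelihood F-test) in 1 fit of all 12 libraries, with Benjamini-Hochberg adjustment over 15477 genes. CPM use the whole library total times the TMM factor. DESeq2 1.42.0, limma 3.58.1 (voom with quality weights), sva 3.50.0, other scalings, filters, GC and length offsets and the removal of each library were alternatives. Copies at 95% identity over 50% of the length were searched with minimap2 2.31-r1302 and none was found for the members. Totals of 26288519 or more counts make counting error small beside the spread between libraries for most members. In Sham WT this does not hold for Spp1 (12 to 30 counts) or Comp (68 to 91 counts). Spp1 counts were also low in the TAC groups (24 to 166), where its libraries spread more widely.

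The 10 members and the lists were chosen with earlier results of these data known. All members were named, with up to 4 genes per list and comparison of smallest p among those that passed, genes at 0 throughout and the 3 genes most like each member by Pearson correlation of log2 CPM (prior count 2), of which some are not reported here. Myh4 and the motif TATATAA were chosen after their values or letters were seen.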

Additional observations from a re-analysis of the deposited data

Results flagged for a closer look

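Of the 30 sets of 4 libraries formed by the 10 genes and 3 groups, 6 held a library that stood apart from the other 3, with a gap to its nearest neighbour, as a share of the group's range, above Dixon's 95% critical value for 4 values. Chance gives about 1 in 20 such sets. TAC KO 1 was high in Thbs2, at 21.1 CPM, with 16.5 CPM in the next library. TAC KO 3 was high in Spp1, at 4.73 CPM, with 1.32 CPM next. TAC WT 4 was high in Tnc, at 44.97 CPM against 11.8 CPM in the next library, and in Spp1, at 2.61 CPM against 0.956 CPM. TAC WT 2 was low in Sparc, at 623 CPM, with 795 CPM next. Sham WT 1 was high in Cilp, at 13.6 CPM, with 8.91 CPM next. Leaving out TAC WT 4 ended the Tnc call in TAC WT over Sham WT, and leaving out TAC KO 3 ended the Spp1 call in TAC KO over Sham WT. Leaving out TAC WT 2 brought the Sparc difference between TAC KO and TAC WT past the threshold. The Cilp and Thbs2 calls held without Sham WT 1 and TAC KO 1.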

How the results depend on the processing

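Each member's 3 comparisons were recomputed under 22 alternatives, 660 values in all. Of these, 566 kept their direction and their side of the threshold, 54 lost the call, 9 gained it and 31 changed sign. All sign changes were in values that did not pass as reported above. In TAC KO over TAC WT, Thbs3 was at -0.0013 with a filter of 1 CPM in 4 libraries, -0.062 with voom, -0.022 with 1 surrogate variable and -0.013 after removal of GC and length trends. Tnc was at 0.22 with voom, 0.88 (adjusted p = 0.0003065) with 1 surrogate variable and 0.067 after removal of those trends, and Thbs4 and Cilp were at 0.20 and 0.10 with 1 surrogate variable. With each library left out in turn, log2 fold changes of TAC KO over TAC WT ran from -0.07 to 0.11 for Thbs3, -0.36 to 0.23 for Thbs4, -0.35 to 0.15 for Comp, -0.91 to 1.05 for Tnc, -0.20 to 1.28 for Spp1 and -0.26 to 0.13 for Cilp, and Thbs2 in TAC KO over Sham WT from -0.045 to 0.16. Without TAC WT 4 and TAC KO 3 together, which was chosen after seeing the data, values in TAC KO over TAC WT were -0.085 for Thbs3, 0.05 for Thbs4, 0.19 for Tnc and 0.077 for Cilp. The members called in TAC KO over TAC WT, 2 of 10, were 1 in a fit of those groups alone, 4 with 1 surrogate variable and 1 to 4 with a library left out. Those called in TAC KO over Sham WT, 8 of 10, were 4 to 8 with a library left out, and the 9 called in TAC WT over Sham WT were 6 to 9. The cause was not tested. Counts over all genes stayed within 1.5 times. No paired analysis was possible because the labels give no replicate numbers.

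With 4 libraries a group, members of high spread (Tnc, Spp1, Comp and Thbs1) allow only wide intervals. NRON KO hearts without load were not analysed here, so knockout and response to load cannot be told apart. Counts of RNA say nothing of the secreted protein.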
